A study of Mus musculus with 3 samples.

Results

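H2AK119ub, a ubiquitin mark on histone H2A, was mapped around 10 genes of the taste cells that respond to sweet, umami, bitter and carbonated or sour stimuli. They were the receptor genes Tas1r1, Tas1r2 and Tas1r3, the signalling genes Gnat3, Gng13, Plcb2, Itpr3 and Trpm5, and the type III cell genes Car4 and Pkd2l1. A region of a replicate's list was counted for a gene when its gene-name column held that gene, whatever its location class, or when it overlapped the gene's bounds or 5 kb on either side. Such regions numbered 8 of 7838 in replicate 1 and 12 of 8093 in replicate 2, and they reached 5 of the 10 genes in each replicate, the same 5 genes. Of all protein-coding genes, the same rule reached 25.3% in replicate 1, 25.0% in replicate 2 and 19.1% in both. The other 5 genes, Tas1r1, Tas1r2, Tas1r3, Trpm5 and Gnat3, had no such region in either replicate.

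The material was the tongue epithelium of newborn mice at postnatal day 0, genotype given as control, without further allele. Tongues had been trimmed to leave out the circumvallate papillae, cells were sorted on the epithelial surface protein EpCAM, and the submitters title all libraries as non gustatory epithelium. There was 1 group, of 2 H2AK119ub libraries described as biological replicates, and 1 input library that was not analysed here. The labels do not say how many animals went into a library, nor that the smaller papillae of the front of the tongue were removed. Each list gives the first and last position of its regions in mm10, 1 of 4 location classes and gene names, with no height, score or read count. Depth is therefore unknown, and a region can come from all or from a part of the sorted cells, which cannot be told apart. With a single group there was no contrast to test, and the values below describe presence, position and width.

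Polycomb repressive complex 1 attaches ubiquitin to histone H2A at genes that it helps to keep silent, often around CpG-rich promoters of genes that other cell types use. Taste buds hold support-like type I cells, receptor-bearing type II cells and synapse-forming type III cells. In type II cells a receptor activates the G protein gustducin. Phospholipase C then makes inositol trisphosphate, calcium leaves its internal store, and the cation channel Trpm5 opens.

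The sequences just before the transcription start are given for 5 members, to set Car4, the member with a promoter region in both replicates, beside the receptor genes and Gnat3, which had no region. Each line holds the 250 bases before the start from RefSeq (GRCm38.p6), 5′ to 3′ on the gene's strand, with every CpG dinucleotide in capitals. The Car4 stretch is at chr11:84957504-84957753 on the plus strand. Tas1r1 is shown from chr4:152038491-152038740 on the minus strand, Tas1r2 from chr4:139653288-139653537 on the plus strand and Tas1r3 from chr4:155863354-155863603 on the minus strand. The Gnat3 stretch is at chr5:17962320-17962569 on the plus strand.
Car4: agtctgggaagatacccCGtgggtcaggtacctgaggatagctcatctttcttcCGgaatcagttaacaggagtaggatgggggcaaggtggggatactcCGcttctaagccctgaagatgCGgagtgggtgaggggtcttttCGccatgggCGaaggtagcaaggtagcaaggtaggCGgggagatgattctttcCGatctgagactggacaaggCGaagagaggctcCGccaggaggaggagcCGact
Tas1r1: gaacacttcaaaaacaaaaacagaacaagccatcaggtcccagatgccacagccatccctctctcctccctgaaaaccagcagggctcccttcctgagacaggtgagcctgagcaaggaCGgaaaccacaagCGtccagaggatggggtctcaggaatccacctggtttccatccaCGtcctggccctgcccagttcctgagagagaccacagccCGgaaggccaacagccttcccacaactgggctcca
Tas1r2: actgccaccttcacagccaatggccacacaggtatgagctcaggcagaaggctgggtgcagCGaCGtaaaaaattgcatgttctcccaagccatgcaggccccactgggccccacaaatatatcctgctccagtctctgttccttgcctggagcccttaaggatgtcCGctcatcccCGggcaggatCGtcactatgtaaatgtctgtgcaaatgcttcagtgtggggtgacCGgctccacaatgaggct
Tas1r3: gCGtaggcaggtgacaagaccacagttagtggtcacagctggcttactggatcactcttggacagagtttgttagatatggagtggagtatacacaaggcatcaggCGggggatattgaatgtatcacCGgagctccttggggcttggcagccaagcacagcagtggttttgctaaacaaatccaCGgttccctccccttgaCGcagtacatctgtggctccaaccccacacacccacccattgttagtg
Gnat3: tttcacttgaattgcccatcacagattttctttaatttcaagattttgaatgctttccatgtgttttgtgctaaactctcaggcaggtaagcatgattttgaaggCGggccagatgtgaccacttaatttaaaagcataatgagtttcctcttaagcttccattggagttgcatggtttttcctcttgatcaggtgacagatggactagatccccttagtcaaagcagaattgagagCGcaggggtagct
The Car4 stretch holds 11 CpGs. The Tas1r1, Tas1r2 and Tas1r3 stretches hold 4, 6 and 5, and that of Gnat3 holds 2. Members not shown here go the other way. In the promoter windows described below, Itpr3 held 30 CpGs and the second start of Gng13 held 34, with no region on either. The Plcb2 window held 5 CpGs and was overlapped by a region in replicate 1. The 5 stretches therefore cannot show whether CpG content goes with the mark.

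The Tas1r genes encode the receptor subunits of sweet and umami taste: Tas1r1 pairs with Tas1r3 for umami and Tas1r2 pairs with Tas1r3 for sweet compounds. All 3 lie on chromosome 4, as 3 separate loci. Tas1r1 (152027914 to 152038490) had its nearest region 33.0 kb away in replicate 1 and 33.2 kb away in replicate 2, at the promoter of Phf13. For Tas1r2 (139653538 to 139670280) the nearest region was intergenic, 34.0 kb away in replicate 1 and 50.3 kb away in replicate 2, on the side of the muscle progenitor gene Pax7. Tas1r3 (155859268 to 155863353) had the nearest region of the 3, the Mxra8 promoter region, 15.2 and 14.5 kb away. No region entered the bounds of any Tas1r gene in either replicate. The 5 kb flank of the rule passed between Gng13, whose nearest region was 4.00 and 4.27 kb away, and Tas1r3.

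Although the Tas1r genes were free of regions, the surroundings of Tas1r1 and Tas1r2 were not. Regions covered 31.2% of the Tas1r1 gene with 100 kb on either side in replicate 1 and 19.1% in replicate 2, a mean of 25.1% ± 8.54 (SD, n = 2). That was more than in 98.0% and 94.1% of the 21631 protein-coding genes on autosomes and X. The regions there were named for Dnajc11, Thap3, Phf13, Plekhg5 (13.3 and 12.5 kb wide) and Espn, an actin-bundling gene (29.8 kb, shared with Tnfrsf25, and 14.0 kb). Tas1r2 had 24.8% and 18.1% of the same span covered, with Iffo2 regions on one side. On the other side were an intergenic region (11.3 and 1.87 kb) and a Pax7 gene body region (13.5 and 14.7 kb) that passed the edge of the span. Around Tas1r3 the share was 2.69% and 6.19%. Median values over all genes were 0.931% and 0.827%.

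Gnat3 encodes the alpha subunit of gustducin. It lay in a stretch with no region in either list: the nearest was 3.04 Mb away in replicate 1 and 2.60 Mb away in replicate 2. Of all protein-coding genes, 97.7% and 96.8% were closer to a region. No region lay within 1 Mb of Gnat3 in either replicate, while each of the other 9 members had 11 to 36 regions within that distance. Its neighbour Gnai1, which encodes another alpha subunit, was likewise 2701 and 2259 kb from a region.

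Gng13 encodes the gamma subunit that joins gustducin, on chromosome 17 (25717172 to 25719102). It counted as reached only through the flank. A promoter region that the authors named for Chtf18 and Rpusd1 spanned 25723098 to 25726312 in replicate 1, and its counterpart in replicate 2 spanned 25723370 to 25726848. These regions were 3.21 and 3.48 kb wide and shared 2943 bp. Neither carried the name Gng13 or covered a base of it. Chtf18, which overlaps the end of Gng13 by 73 bp, had 38.3% and 41.4% of its own length covered.

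Plcb2 encodes the phospholipase that acts downstream of gustducin, and it was the member with the most coverage. In replicate 1 a promoter region of 47.1 kb on chromosome 2 (118686175 to 118733312), named for Plcb2 and Ankrd63, covered 100% of the gene (118705003 to 118728661). In replicate 2 a promoter region of 28.8 kb (118691962 to 118720792) was named for Ankrd63 alone and covered 66.7% of Plcb2. A separate gene body region of 2.72 kb (118722356 to 118725080) was named for Plcb2 and covered a further 11.5%. Coverage was thus 100% and 78.3%, a mean of 89.1% ± 15.4 (SD, n = 2), and 18.5 kb of the gene was covered in both replicates. In replicate 1, 97.2% of protein-coding genes had less coverage, and in replicate 2, 96.5%.

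The replicates differed at the Plcb2 promoter. The replicate 1 region passed over the transcription start of the reference (118728438), and the closest region of replicate 2 ended 3.36 kb short of it. By the location class, Plcb2 was therefore a promoter gene in replicate 1 only. The 47.1 kb region was wider than 99.5% of its list, and the 28.8 kb region than 98.2% of its list. Neighbouring genes on both sides were also under broad regions: Pak6, which encodes a kinase (20.4 and 19.2 kb), Ankrd63, which was fully covered in both replicates, and Inafm2 (28.0 and 9.32 kb). Coverage of the gene with 100 kb on either side was 42.7% and 34.0%, the highest of the 10 members in each replicate.

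Itpr3 encodes the inositol trisphosphate receptor that releases calcium in type II cells. It lies on chromosome 17 from 27057002 to 27122223. The regions that carried its name were all distal and lay before its start. Replicate 1 had 2 of them, one of 7.19 kb (27039742 to 27046936) and one of 2.99 kb (27052302 to 27055294) that ended 2.01 kb from the start site. Replicate 2 had 1, of 7.41 kb (27044878 to 27052289), which ended 5.01 kb from the start site. It shared 2.06 kb with the farther region of replicate 1 and stopped 13 bp before the nearer one began, so the regions of the lists abutted there. No base of the gene was covered in either replicate. At the gene's other end, replicate 2 had an Uqcc2 promoter region 3.48 kb away (7.77 kb wide), and replicate 1 had a narrower one 9.68 kb away (1.53 kb wide).

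Trpm5 encodes the channel that depolarises type II cells. It lies on chromosome 7 from 143071529 to 143094642, beside the imprinted gene Kcnq1. Its nearest region was in the body of Kcnq1, 27.3 kb away in replicate 1 and 25.6 kb away in replicate 2, with widths of 6.67 and 6.79 kb. On the other side, the nearest was the Tspan32 promoter region at 63.8 and 60.8 kb. The gene and its 5 kb flanks were free of regions in both lists.

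**Figure D1:**
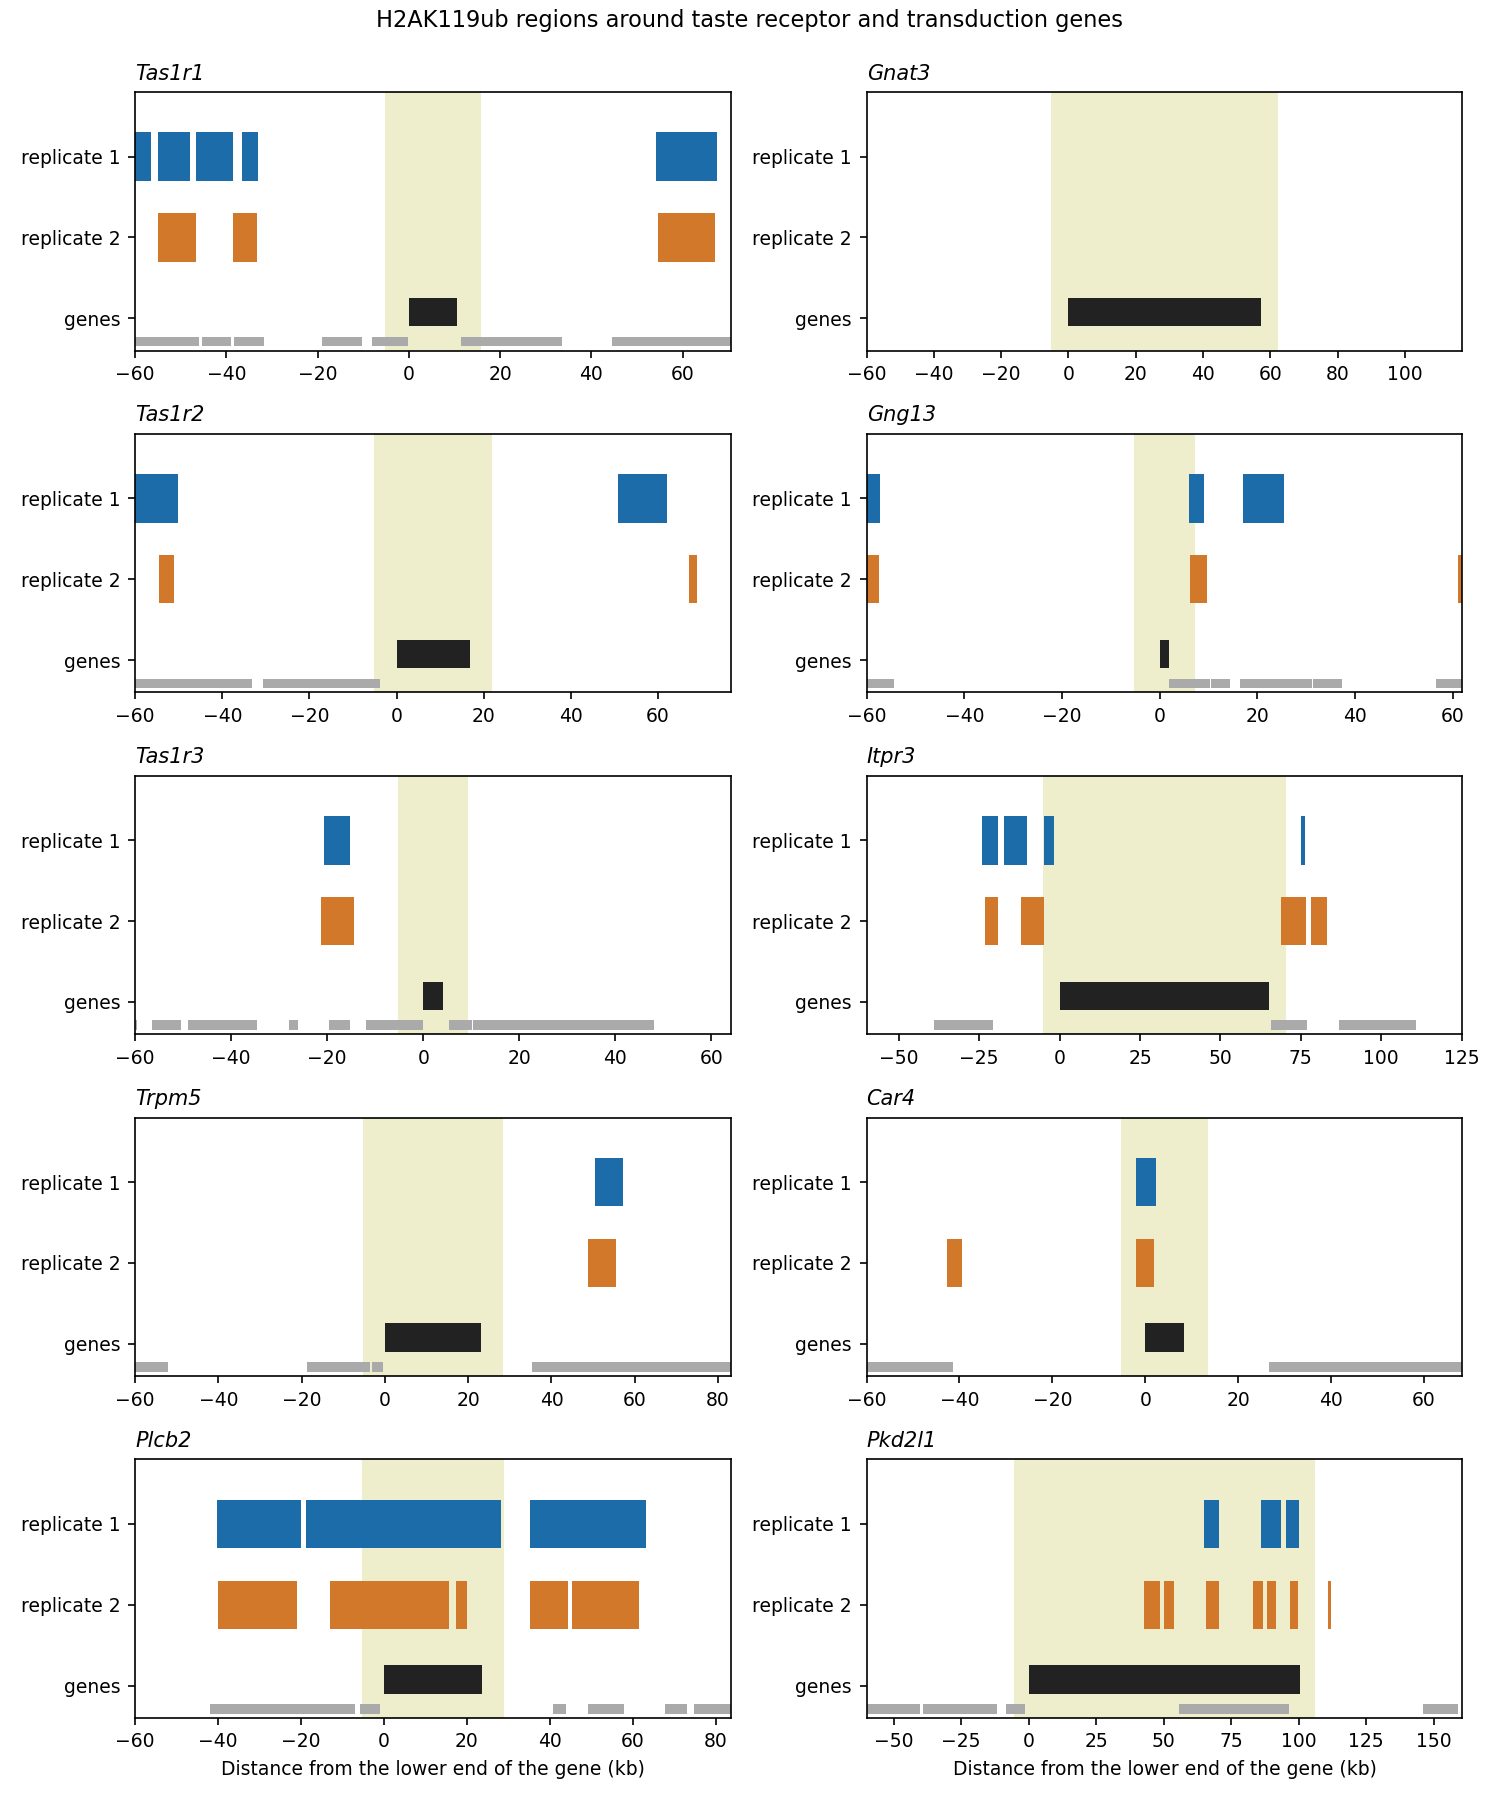
Position of H2AK119ub regions around each of the 10 genes, as distance in kb from the lower-coordinate end of the gene, with replicate 1 in blue, replicate 2 in orange, the member in black, other protein-coding genes in grey, and the gene with 5 kb on either side shaded. Plcb2 is covered throughout in replicate 1 and to 78.3% in replicate 2, Car4 is covered at one end, and Gnat3 has no region in view.

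Car4 encodes a carbonic anhydrase that is tethered to the surface of type III cells and takes part in sensing carbonation. It was the only one of the 10 genes with a promoter region in its name in both replicates. On chromosome 11 replicate 1 had the region at 84955710 to 84960064 and replicate 2 at 84955667 to 84959685, over the start of the gene (84957754 to 84966054). The starts of the regions differed by 43 bp and their ends by 379 bp, and they shared 3976 bp, which was 91.3% of the first and 98.9% of the second. Widths were 4.35 and 4.02 kb, below the medians of 8080 and 6843 bp for promoter regions. Of the promoter regions, 26.4% in replicate 1 and 26.9% in replicate 2 were narrower.

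The Car4 region covered 27.8% of the gene in replicate 1 and 23.3% in replicate 2, a mean of 25.6% ± 3.23 (SD, n = 2). It stood apart from other regions. In replicate 1 the nearest on either side were 152 and 280 kb from the gene. In replicate 2 a Znhit3 promoter region lay 39.4 kb away on one side, and 791 kb separated the gene from the next region on the other. Coverage of the gene with 100 kb on either side was 2.09% and 3.55%.

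Pkd2l1 encodes a channel that marks sour-sensing type III cells. A promoter region of 6.06 kb on chromosome 19 (44190253 to 44196310) carried its name in replicate 2. In replicate 1 no region did, and the nearest region to that position was 16.2 kb away. The bounds of Pkd2l1 in the reference (44147637 to 44248328) rest on 1 curated and 10 predicted transcripts and enclose the whole of Scd3, a fatty acid desaturase gene. The named region lies 42.6 kb inside one end and 52.0 kb inside the other, so the authors' annotation placed the promoter within these bounds. RefSeq promoter windows for the gene were not used here.

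Because of these bounds, regions named for Scd3 and Scd2 also counted for Pkd2l1. There were 3 in replicate 1, of 5.69, 7.30 and 4.53 kb, and 5 in replicate 2, from 3.06 to 4.89 kb. The bounds were covered to 17.4% in replicate 1 and 24.6% in replicate 2, a mean of 21.0% ± 5.10 (SD, n = 2). Of the covered length, 11.8 kb was covered in both replicates. Each of the 3 regions of replicate 1 overlapped at least 1 of replicate 2, and the pair with the longest overlap, inside Scd3, shared 4.76 kb.

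Read against all protein-coding genes, the count of 5 of 10 members reached in both replicates was above the background of 19.1%, with no test made. The 5 genes were reached in different ways. Regions overlapped the bounds of 3 genes in both replicates (Plcb2, Car4 and Pkd2l1, background 13.3%), and the authors' names gave 3 in both (Plcb2, Itpr3 and Car4, background 15.3%). By name alone, replicate 1 gave those 3 genes (background 21.0%) and replicate 2 gave Pkd2l1 as well (background 20.8%). A promoter region named 1 of 10 in both replicates, Car4, against a background of 8.82%. In replicate 1 promoter regions named Plcb2 and Car4 (background 12.8%), and in replicate 2 they named Car4 and Pkd2l1 (background 12.4%). The promoter share is near the background and is no result about these genes. The share reached rests on 10 genes. Of these, Gng13, Pkd2l1, Plcb2 and, in replicate 2, Itpr3 had regions that the authors named for neighbouring genes, alone or as well. In replicate 1 all regions counted for Pkd2l1 were named for Scd3 or Scd2. Median gene length was 19.9 kb for the members and 17.3 kb for all genes.

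Over the gene with 100 kb on either side, the members' median coverage was 8.81% in replicate 1 and 10.8% in replicate 2, against 0.931% and 0.827% over all genes. Of the 10 members, 9 were above the median of all genes in each replicate, and Gnat3 was at 0. About as many of all genes lie above a median as below it. The span also takes in the regions that the rule itself counted, so these values are not separate from the count reached. In replicate 1 the only regions in the span were the counted ones for Car4 (1) and Pkd2l1 (3). Within the gene bounds the order was different: 7 members had no covered base, as did 81.9% of all genes in each replicate. Plcb2 was above Car4 and Pkd2l1 in both replicates. Car4 was above Pkd2l1 in replicate 1 and below it in replicate 2, so these 2 did not differ beyond the spread of the replicates.

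**Figure D2:**
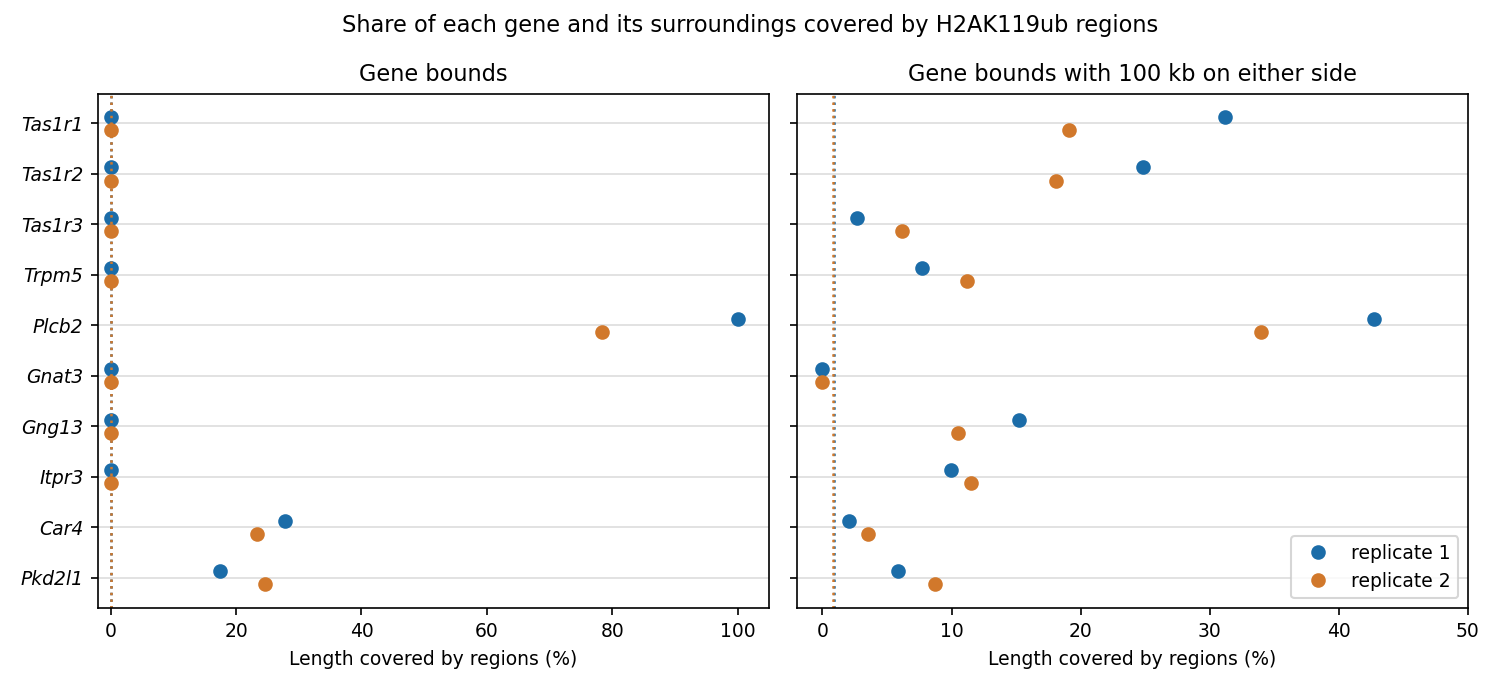
Percent of length covered by H2AK119ub regions for the gene bounds (left) and for the gene with 100 kb on either side (right), 1 point per replicate, with dotted lines at the median of all protein-coding genes. Plcb2 stands highest in both panels, while Tas1r1 and Tas1r2 are at 0 on the left and between 18.1% and 31.2% on the right.

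Promoter windows of 300 bases, from 250 before to 50 after the transcription start, were matched for 9 of the 10 members, with 2 windows for Gng13. CG was counted as the motif. It reads the same on both strands and cannot overlap itself. The windows of Tas1r1, Tas1r3, Trpm5 and Plcb2 held 5 CpGs each, a count that 72.3% of the 21045 windows of protein-coding genes reached or passed. Gnat3 had 4 (76.7% of windows had as many or more), Gng13 at its first start 6 (68.3%) and Tas1r2 8 (62.1%). Car4 had 15 (47.3%), Itpr3 30 (15.6%) and the second start of Gng13 34 (10.3%). In all, 7 of 10 member windows held fewer than 10 CpGs, as did 42.7% of all windows. The observed CpG count was 0.64 of that expected from base content at Car4, 0.18 at Plcb2, 0.24 at Tas1r3 and 0.80 at Itpr3, with a median of 0.57 over all windows.

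Regions overlapped the Car4 window in both replicates and the Plcb2 window in replicate 1. They overlapped no other member window. Of all windows, regions overlapped 8.35% in replicate 1, 7.98% in replicate 2 and 5.52% in both. By CpG count, overlap in both replicates went from 1.82% of windows with 0 to 4 CpGs, through 6.07% at 5 to 9 and 6.61% at 15 to 19, to 7.65% at 30 or more. The most CpG-rich member windows, those of Itpr3 and the second start of Gng13, had no region on them, with the nearest 2.01 and 5.57 kb from the start in replicate 1 and 5.01 and 5.84 kb in replicate 2. The Plcb2 window, with 5 CpGs, lay under the widest region of any member. CpG counts describe these windows and are not binding sites.

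**Figure D3:**
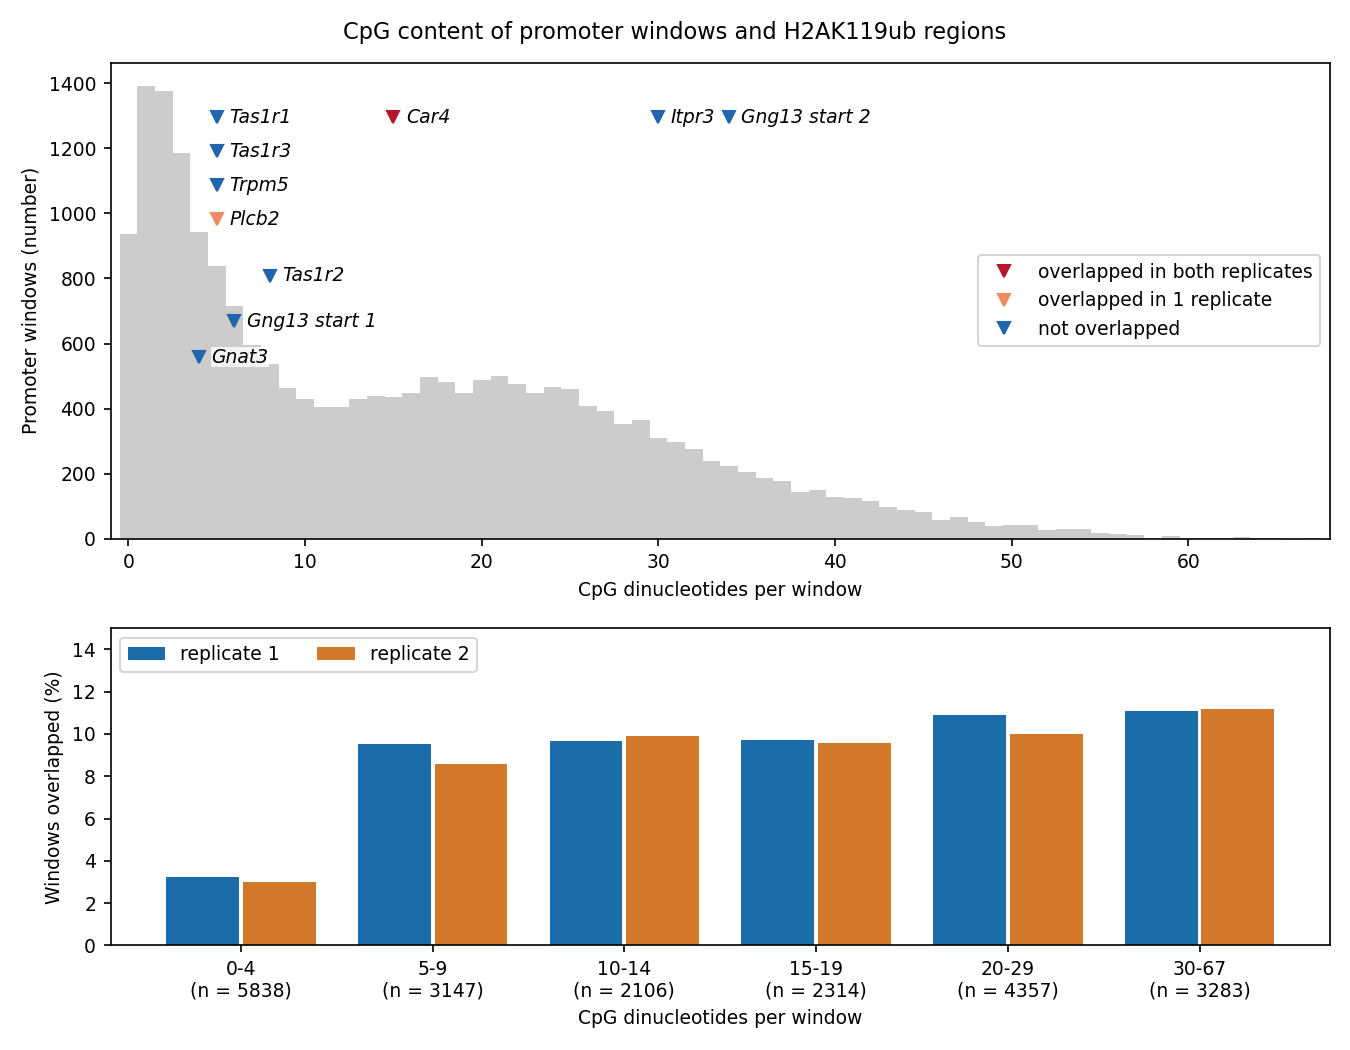
Top, number of promoter windows of protein-coding genes by CpG count, with triangles at the CpG counts of member windows (their height has no meaning), coloured by overlap with a region. Bottom, percent of windows overlapped in each replicate by CpG count, from 3.25% and 3.01% at 0 to 4 CpGs to 11.1% and 11.2% at 30 or more.

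Bitter taste uses a separate family of receptors, the Tas2r genes, which share gustducin, Plcb2, Itpr3 and Trpm5 with the Tas1r genes. Of 35 Tas2r genes, 33 lie on chromosome 6, and 0 were reached in either replicate (background 25.3% and 25.0%). The closest region was 63.1 kb from Tas2r119 in replicate 1 and 408 kb from Tas2r134 in replicate 2. Median distances were 1046 and 1142 kb, against 74.8 and 76.1 kb over all genes. Genes of a cluster share their surroundings and are not independent observations.

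Among 12 other genes of type II cells, 1 was reached in both replicates (8.33%, background 19.1%). This was the phospholipase gene Plcg2, with a promoter region of 8.47 kb in replicate 1 and a widest region of 2.73 kb in replicate 2. Some partners of the members were reached in a single replicate and are named because of it. Gnb3, a beta subunit of gustducin, had a promoter region of 5.13 kb over 85.0% of the gene in replicate 1 and no region within 55.4 kb in replicate 2. Calhm1, a pore subunit of the channel that releases ATP, had a promoter region of 4.80 kb over 65.1% of the gene in replicate 2 and none within 98.5 kb in replicate 1.

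Of 13 genes of sour-sensing and other type III cells and of sodium taste, 4 were reached in both replicates (30.8%, background 19.1%). Scnn1a, a subunit of the epithelial sodium channel, had promoter regions of 9.31 and 9.02 kb, and the calcium channel gene Cacna1a had promoter regions of 10.7 and 4.76 kb. The others were Ddc, an enzyme of serotonin synthesis (4.36 and 3.21 kb, at the promoter in replicate 1 only), and Scnn1b (4.44 and 2.90 kb). No base of Scnn1b was covered in either replicate. Its nearest region was 4.11 kb away in replicate 1 and 15.1 kb away in replicate 2, where it counted by name only. Otop1, the proton channel of sour cells, was 177 and 178 kb from a region. Of 4 type I cell genes, 1 was reached in both replicates (25.0%), Entpd2, the enzyme that breaks down released ATP. It was fully covered by a 15.2 kb promoter region in replicate 2 and had a 3.19 kb region 2.16 kb away in replicate 1. Of 5 genes of receptors that the taste nerve and taste cells use, 2 were reached in both (40.0%): the ATP receptor gene P2rx3 had promoter regions of 1.91 and 6.69 kb, and P2ry2 was reached by regions of 3.25 and 2.80 kb. No base of P2ry2 was covered in either replicate, and its nearest regions were 4.54 and 4.93 kb away.

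Paralogs of the members were counted by the same rule. Of 15 other carbonic anhydrase genes, 4 were reached in both replicates (26.7%) and 3 had promoter regions in both: Car12 (15.9 and 21.6 kb), Car7 (10.3 and 11.0 kb) and Car11 (5.29 and 1.94 kb). Those of Car12 and Car7 were wider than the regions of Car4. Car14 was reached from a neighbouring position (4.44 and 5.66 kb). Of the 3 other phospholipase genes of the family, 0 were reached in either replicate (background 25.3% and 25.0%). Plcb1, Plcb3 and Plcb4 were 1144, 12.8 and 605 kb from a region in replicate 1 and 1144, 10.4 and 605 kb in replicate 2. Of the 2 other inositol trisphosphate receptor genes, 1 was reached in both (background 19.1%): Itpr1 had promoter regions of 4.62 and 2.67 kb (promoter background 8.82%).

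Of 15 other G protein alpha genes, 5 were reached in both replicates (33.3%, background 19.1%) and 2 had promoter regions in both (13.3%, background 8.82%). These 2 were Gnas, which is imprinted (9.50 and 7.65 kb), and Gnal, the alpha subunit of olfactory neurons (9.76 and 8.47 kb). Gnat1, the transducin gene of rod cells, was fully covered by a 46.9 kb promoter region in replicate 1. In replicate 2 the nearest region, 16.5 kb wide, was 2.17 kb away. Gnat2, the transducin gene of cone cells, was 214 and 216 kb from a region. Of 11 gamma genes, Gngt2 (17.3 and 24.5 kb) and Gng7 (19.7 and 14.8 kb) were reached in both (18.2%). Gngt2 was fully covered, with a promoter region, in replicate 2 only. In replicate 1 no base of it was covered and the nearest region was 3.64 kb away. In the Trpm family 1 of 7 was reached in both (14.3%, background 19.1%), Trpm1 (4.20 and 5.33 kb). In the Pkd family it was also 1 of 7 (14.3%), Pkd1l2 (3.08 and 1.36 kb). Of 16 receptor genes of the class to which the Tas1r genes belong, 5 were reached in both (31.2%, background 19.1%). Promoter regions in both were at 2 of them (12.5%, background 8.82%). These were the glutamate receptor gene Grm4, with 23.7 and 27.6 kb, and Gprc5c, with 14.2 and 10.7 kb.

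**Figure D4:**
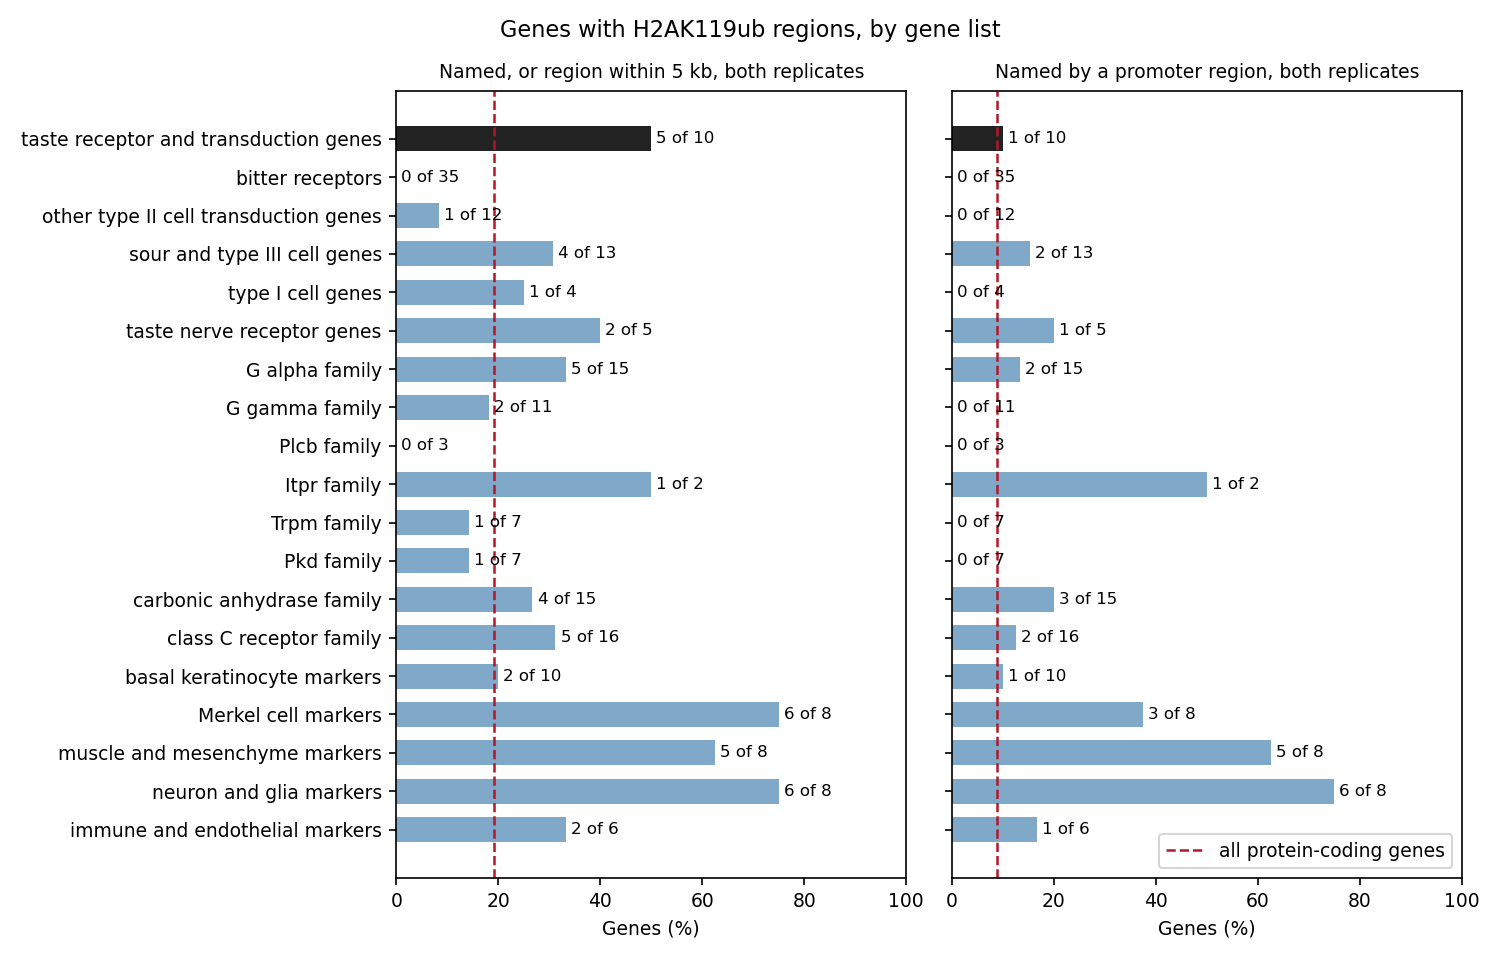
Percent of the genes of each list reached in both replicates (left) and named by a promoter region in both (right), with the number of genes beside each bar and a dashed line at the share of all protein-coding genes (19.1% and 8.82%). The member genes are in black at 5 of 10 and 1 of 10, and the bitter receptors are at 0 of 35.

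Marker genes of cell types were read the same way, as presence of the mark and not as expression. Of 10 basal keratinocyte markers, 2 were reached in both replicates: Krt15, with promoter regions of 23.5 and 20.6 kb, and the integrin gene Itgb4, with regions of up to 18111 and 14954 bp that left it 43.9% and 19.6% covered. In replicate 2 only, 97.3% of the basal keratin gene Krt5 lay under a 14.9 kb promoter region, and regions reached Itga6 (up to 14.5 kb) and Cdh3 (2.29 kb) in replicate 1 only. Trp63, Krt14, Epcam and Cdh1 had no region closer than 34.9 kb in either replicate. Promoter regions in both replicates were found at 1 of the 10 basal keratinocyte markers, Krt15, against a background of 8.82%. The counts were 3 of 8 for Merkel cell markers and 5 of 8 for muscle and mesenchyme markers. For neuron and glia markers the count was 6 of 8, and for immune and endothelial markers 1 of 6. Reached in both replicates were 6, 5, 6 and 2 genes of these last 4 lists, in that order. The background for genes reached in both was 19.1%, and no test was made.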

How the data were processed

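The authors deposited 1 list of regions for each H2AK119ub library, with positions in mm10, location classes and gene names per the file headers. Per the submitters' processing notes, the tools were Bowtie2 2.3.3 and SAMtools 0.1.19, without stated roles. How peaks were called, whether the input entered, how classes were defined and whether positions count from 0 or 1 is not stated in the labels or headers. Positions are printed as deposited, and width is last minus first position.

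Gene bounds, which span all transcripts, predicted ones included, and promoter windows came from RefSeq tables of GRCm38.p6, the same assembly as mm10. All 10 members matched by symbol, as did 14728 of 14757 names in the lists by symbol or unique synonym. Calhm3 had no entry and was left out. Overlap counted from 1 bp, and background shares were taken over 21631 protein-coding genes. With 1 group of 2 samples, no statistical test was made, and SD is over the replicates. Overlap and coverage functions were checked on simulated regions. The members and the 18 gene lists were chosen with earlier results of these data known. Genes named were the members, the genes naming their regions, nearest neighbours and, of each list, up to 6 genes with promoter regions in both replicates and up to 4 others reached in both, widest first. Genes reached in 1 replicate or none were named after their values were seen, and not every marker or family gene that the rule selects is named. Alternatives varied the flank, naming, minimum width, overlap and replicates. Python 3.11.15, numpy 2.4.6, pandas 2.3.3 and matplotlib 3.10.9 were used.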

Additional observations from a re-analysis of the deposited data

How the results depend on the processing

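The 5 members reached in both replicates became 3 with names alone and 3 with regions above the median width of their list, and numbered 4 or 5 under the other alternatives. The share of all protein-coding genes reached (19.1%) was 16.8% with no flank, 17.2% with 1 kb, 21.7% with 10 kb, 15.3% by name, 17.2% by overlap alone, 11.4% above the median width, 16.9% with at least 500 bp, 31.2% in either replicate, and 25.0% to 25.3% with 1 replicate left out. The 1 member with a promoter region in both replicates became 3 by any class, 3 within 1 kb of either gene end, 5 within 5 kb, 0 above the median width, since both Car4 regions are narrower than it, and 3 in either replicate. With replicate 1 or replicate 2 left out it became 2 (2 to 2). The matching share of all genes (8.82%) was 15.3%, 9.93%, 14.1%, 6.31% and 16.4% in that order, and 12.4% to 12.8% with 1 replicate left out. It was 4.54% when the RefSeq promoter window had to be overlapped, an alternative chosen after seeing the data, with 1 member. Members whose regions overlapped between replicates numbered 5, and 4 when each region had to cover 50% of the other. Coverage of Gng13 and Itpr3 went from 0% to 7.28% and 3.19% with 5 kb on either side. Of 52 values under alternatives, 29 moved by more than 1.5 times (counts) or more than the SD of the replicates (percentages), and the cause was not tested unless given. With regions above the median width, the promoter count fell from just above the background to below it. None of these values can be negative, so they could not change sign. No paired analysis was possible because there is 1 group. Depth is unknown, so an absent region may lie under the limit of the authors' caller.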
